A study of Rattus norvegicus with 71 samples.

Results

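Ion channel subunits were followed in the whole lung of newborn rats of 3 inbred strains. The genes were chosen by symbol (Kcn, Scn with a digit, Scnn, Cacn, Clcn, Trpc, Trpm or Trpv), and a gene was kept when 3 or more arrays gave its probe a detection p-value under 0.01. Of 136 such genes with a probe on the array, 71 were kept, among 9642 detected genes in all. Ion channels are pore proteins that let sodium, potassium, calcium or chloride cross a membrane, and auxiliary subunits set where and how readily a pore opens. In lung epithelium, sodium entry through the epithelial sodium channel, helped by basolateral potassium channels and the sodium pump, draws liquid out of the air spaces around birth. In airway and vessel walls, potassium and calcium channels set the tension of smooth muscle.

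The strains were Brown Norway, Fisher and Lewis, and total RNA of the lung was measured on bead arrays at postnatal days 1, 7 and 14 (PN1, PN7 and PN14), after exposure in utero to saline or to ovalbumin, an egg protein used as an allergen. Each of the 18 groups of strain, age and exposure held 4 arrays, except Fisher PN7 saline with 3, and the saline groups are the controls. The labels name no animal, litter or sex, so the p-values measure only the spread between these 71 samples. Because whole lung was used, fewer cells of a type and less RNA per cell cannot be told apart. Values are log2 intensities of 1 probe per gene and are not set against the level of another gene, and differences are log2 differences ± standard error from 1 limma fit of all arrays. A gene was called at an adjusted p under 0.05 (Benjamini-Hochberg over 14019 detected probes).

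Each array detected 10128 to 12437 probes and 42 to 58 of the 71 channel genes. Arrays lay on 6 slides, and in saline lung the PN1 arrays (slides 1 and 3) and the PN7 arrays (slides 2 and 4) shared none, and neither did the PN7 and the PN14 arrays (slides 1 and 5). Several arrays stood apart from their own group, among them Lewis PN7 saline c, Lewis PN7 saline d, Brown Norway PN7 saline b and Fisher PN7 saline c (root mean square distance 0.584, 0.492, 0.582 and 0.557, against a median of 0.299). The summed signal of 5 liver genes reached 27040 in Fisher PN1 saline a and 12763 in Lewis PN7 saline d. As markers of lung, all 6 measured genes of the list for alveolar type 2 cells were detected in every group. So were all 5 for airway secretory cells and 7 or 8 of 8 for alveolar type 1 cells. Marker counts here and below cover only the listed genes that were measured.

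The 71 genes covered most channel classes. There were 17 of 35 voltage-gated potassium channel pores with a probe, 10 of 14 inward rectifiers, 5 of 10 two-pore domain potassium channels and 10 of 16 potassium channel auxiliary subunits. All 3 subunits of the epithelial sodium channel with a probe were detected, beside 5 of 7 ClC chloride channels or exchangers, 4 of 7 voltage-gated calcium channel pores, 6 of 16 of their auxiliary subunits and 2 of 8 voltage-gated sodium channel pores. Among TRP genes, 3 of 6 TRPV and 1 of 2 TRPM genes were kept. Neither of the TRPC channels with a probe (Trpc5 and Trpc6) was kept, and the 1 gene with a Trpc symbol, Trpc4ap, encodes a protein that associates with these channels. Kcnma1, the pore of the large-conductance calcium-activated potassium channel, did not pass although its auxiliary subunits Kcnmb1, Kcnmb2 and Kcnmb4 did.

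Detection varied widely among the genes. On all 71 arrays 26 were detected, on the majority of arrays 50, and on at most 20 arrays 17. At the threshold, Kcnc2 was detected on 3 arrays and Cacna1h and Kcnn1 on 4, while 5 genes left out were detected on 2 arrays, 4 on 1 and 56 on none. A gene that passed through a single group had to be high there, so counts of changed genes are given over all 71.

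The epithelial sodium channel is built from the subunits Scnn1a, Scnn1b and Scnn1g, and the genes of the beta and gamma subunits lie near each other on chromosome 1. Their promoters are shown because both genes rose in exposed Lewis lung at PN7. Scnn1a rose there too, but the RefSeq promoters used here held none for it. The sequences are those of RefSeq on the rat build GRCr8, from 250 bases before to 50 bases after the start, both on the plus strand, Scnn1b at chr1:185861126-185861425 and Scnn1g at chr1:185735975-185736274. Capitals mark any match, on either strand, to 3 motifs: the glucocorticoid receptor hexamer AGAACA, the CACC box CCACCC and the E-box CACGTG.
Scnn1b: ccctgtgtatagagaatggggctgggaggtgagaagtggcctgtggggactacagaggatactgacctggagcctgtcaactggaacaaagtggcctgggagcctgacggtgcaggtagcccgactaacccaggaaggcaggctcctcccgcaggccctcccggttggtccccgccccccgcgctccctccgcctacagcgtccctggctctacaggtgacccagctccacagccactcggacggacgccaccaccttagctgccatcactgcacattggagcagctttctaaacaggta
Scnn1g: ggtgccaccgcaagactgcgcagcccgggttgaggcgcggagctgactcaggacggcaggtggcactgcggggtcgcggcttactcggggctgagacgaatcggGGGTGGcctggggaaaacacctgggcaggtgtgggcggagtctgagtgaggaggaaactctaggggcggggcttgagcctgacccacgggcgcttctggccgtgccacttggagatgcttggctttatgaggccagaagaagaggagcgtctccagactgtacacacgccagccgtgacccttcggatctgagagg
Scnn1b held 0 matches and Scnn1g held 1, a CACC box on the minus strand that begins 146 bases before the start. In RefSeq's 33469 rat promoters of this length, 20.7% held the hexamer, 29.4% the CACC box and 6.42% the E-box. Of the 57 promoters matched to 50 of the 71 channel genes, 15.8%, 45.6% and 5.26% held them. A match describes letters in this window and is no evidence of binding.

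Scnn1a, the pore-forming alpha subunit, varied most of the 3 between groups. In saline Brown Norway lung its 4 arrays at PN1 read 13.49, 13.26, 13.66 and 13.60, and its group mean fell from 13.50 ± 0.18 (SD, n = 4) at PN1 to 11.27 ± 0.47 at PN7 and stood at 12.25 ± 0.10 at PN14. In saline Lewis lung the means were 12.94 ± 0.15, 11.71 ± 0.37 and 12.11 ± 0.23. In saline Fisher lung they were 12.18 ± 0.23, 12.32 ± 1.04 (n = 3) and 11.41 ± 0.66, and the array Fisher PN7 saline c read 13.50, well above the other two. Over the 18 groups the lowest mean was in saline Brown Norway lung at PN7 and the highest, 13.69 ± 0.30, in ovalbumin-exposed Lewis lung at PN7.

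In exposed Lewis lung at PN7 all 3 subunits of the channel were higher than in saline lung, a direction called for 18.3% of all probes in this comparison (16.9% were lower). Scnn1a read 11.49, 11.53, 11.55 and 12.26 in saline and 13.85, 13.32, 14.00 and 13.57 in ovalbumin arrays, without overlap, a rise of 1.98 ± 0.26 or 3.93-fold (limma, adjusted p = 1.63e-08). Scnn1b read 10.03, 10.01, 10.38 and 10.24 against 11.05, 11.03, 10.94 and 11.02, a rise of 0.85 ± 0.13 (limma, adjusted p = 6.94e-07). Scnn1g read 8.59, 8.56, 8.61 and 8.92 against 9.29, 9.19, 9.28 and 9.37, a rise of 0.61 ± 0.14 (limma, adjusted p = 0.000369). In all 3 subunits every exposed array was above every saline array, and 29.8% of all probes had no overlap in this comparison. Without the arrays Lewis PN7 saline c and d, Scnn1a differed by 2.17. Within slide 2 it differed by 1.88 and within slide 4 by 2.07, and its call held in both.

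In exposed Brown Norway lung at PN1 only 1 of the 3 subunits was called, and it was lower, a direction called for 12.6% of probes (13.7% were higher). Scnn1a read 11.82, 12.06, 12.64 and 11.93 after ovalbumin, below all 4 saline arrays given above, and fell by 1.39 ± 0.26 to 0.382 of the saline level (limma, adjusted p = 3.99e-05). Scnn1b (-0.02 ± 0.13, adjusted p = 0.950) and Scnn1g (0.26 ± 0.14, adjusted p = 0.170) did not pass in the limma fit, although the 4 exposed arrays of Scnn1g lay above the 4 saline ones. Of all probes 31.5% had no overlap between the exposures in this comparison. Within slide 3, Scnn1a differed by -1.43.

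**Figure D1:**
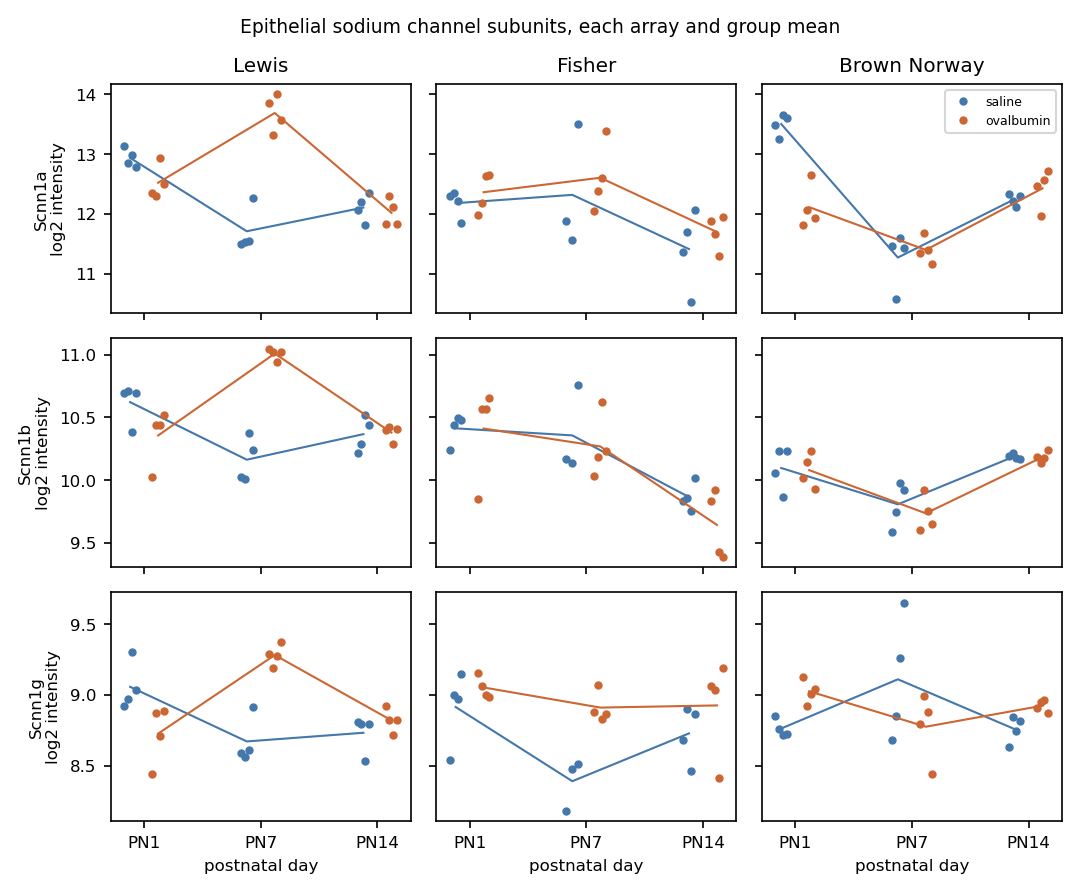
Log2 intensity of Scnn1a, Scnn1b and Scnn1g (rows) by postnatal age in each strain (columns); points are arrays, lines join group means, blue is saline and orange ovalbumin. At PN7 in Lewis lung the orange points of all 3 subunits lie above the blue ones, and at PN1 in Brown Norway lung those of Scnn1a lie below the blue ones, those of Scnn1g slightly above, and those of Scnn1b among them.

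The first age comparison asked which channel genes changed in saline lung from PN1 to PN7 (12 and 11 arrays, mean of the strain differences). The two-pore channel Kcnk1 and the sodium channel subunit Scnn1a fell most, and the leak channel Kcnk2 and the modifier subunit Kcns3 rose most. Of the 71 genes 24 were called, 33.8%, against 47% of all probes, with 13 higher and 11 lower (24.3% and 22.7% of probes). Of these, 7 did not have 1 direction in all strains. The median difference was 0.00 over the channel genes and 0.02 over all probes. No channel gene had arrays of PN1 and PN7 without overlap, which 0.564% of probes had. With slide as a fixed term 12 were called, and the age and slide effects of these saline arrays cannot be told apart without the exposed arrays of the same slides.

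Of the epithelial sodium channel subunits, 2 of 3 were called lower between PN1 and PN7. Scnn1a had a lowest, median and highest value of 11.84, 12.91 and 13.66 at PN1 and of 10.58, 11.55 and 13.50 at PN7, a fall of 1.11 ± 0.16 (limma, adjusted p = 4.38e-08). The difference was -1.23 in Lewis and -2.23 in Brown Norway but 0.14 in Fisher lung. The Fisher value depends on the array Fisher PN7 saline c, which read 13.50 in a group of 3 arrays with an SD of 1.04. Scnn1b fell by 0.27 ± 0.08 (limma, adjusted p = 0.00395), and Scnn1g did not pass (-0.19 ± 0.08, adjusted p = 0.0574). With slide as a fixed term the call of Scnn1b was lost.

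Among two-pore domain channels, which carry background potassium current, Kcnk1 ran from 10.78 to 12.16 at PN1 (median 11.42) and from 9.19 to 11.70 at PN7 (median 10.12). It fell by 1.26 ± 0.14 and did so in each strain (limma, adjusted p = 1.04e-10), with -1.09 in Lewis, -0.51 in Fisher and -2.19 in Brown Norway lung. The stretch-sensitive Kcnk2 rose by 0.88 ± 0.18 (limma, adjusted p = 4.07e-05), from a median of 7.21 to 8.42. Its rise was 1.79 in Lewis but 0.46 in Fisher and 0.38 in Brown Norway lung, and the call was lost with slide as a fixed term. Kcnk3, an acid-sensitive member of the class, had -0.12 ± 0.13 (adjusted p = 0.486).

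Among 17 voltage-gated potassium channels 4 rose and 2 fell, beside 24.3% and 22.7% of all probes. Kcns3, which forms no channel of its own and modifies partner pores, rose by 0.80 ± 0.10 from a median of 9.38 to 10.27, and by 0.59 to 1.03 in the separate strains (limma, adjusted p = 3.08e-09). Kcnh1, a pore of the ether-a-go-go family, rose by 0.67 ± 0.12. Kcnd3, a pore of transient outward current, fell by 0.57 ± 0.11, with -1.41 in Lewis, -0.22 in Fisher and -0.07 in Brown Norway lung. Kcnq1, a pore found in many epithelia, fell by 0.50 ± 0.10 on average but had 0.26 in Fisher lung, and its call was lost with slide as a fixed term.

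Inward rectifiers conduct potassium best near the resting potential, and 1 of 10 rose and 3 fell, beside the same shares of all probes. Kcnj15 was detected on 7 of 12 arrays at PN1 and on 0 of 11 at PN7, so it was at least 1.07-fold lower (limma, adjusted p = 8.71e-08). Kcnj13 was detected on 6 of 12 and 0 of 11 arrays and was at least 1.04-fold lower (limma, adjusted p = 5.62e-06). In Fisher lung no saline array detected either gene at PN1 or PN7. The saline means of Kcnj15 went from 6.72 to 5.37 in Brown Norway, 5.65 to 5.06 in Lewis and 5.28 to 5.05 in Fisher lung. Kcnj12 rose by 0.50 ± 0.14, with 3 of 12 and 7 of 11 arrays detected. Kcnj8, the pore of the vascular ATP-sensitive channel, had -0.21 ± 0.12 (adjusted p = 0.151).

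Smaller changes were found among the other classes. With slide as a fixed term the calls of Kcne2, Kcne3, Kcnmb4, Kcnj12 and Clcn3 were lost. Kcnn4, the calcium-activated potassium channel of intermediate conductance, rose by 0.65 ± 0.19 (limma, adjusted p = 0.00356). The calcium channel beta subunit Cacnb3 rose by 0.62 ± 0.10, from 0.15 in Lewis to 1.36 in Brown Norway lung. The accessory subunits Kcne2 (0.58 ± 0.17) and Kcne3 (0.35 ± 0.11) rose and Kcnmb4 fell (-0.42 ± 0.14). The sodium channel subunit Scn3b (0.38 ± 0.13) and the calcium channel pore Cacna1d (0.37 ± 0.10) rose, and with slide as a fixed term both lost their call and turned to -0.16 and -0.073. The endosomal chloride exchanger Clcn3 fell by 0.34 ± 0.11 and the TRP channel Trpv2 rose by 0.21 ± 0.08 on average. Trpv2 rose in Fisher and Brown Norway lung, but its Lewis saline mean went from 8.48 to 8.30. Kcnmb1 (0.25 ± 0.11, adjusted p = 0.0552), Cacna1c (0.19 ± 0.09, adjusted p = 0.0646), Clcn2 (-0.04 ± 0.12, adjusted p = 0.809) and Trpv4 (0.05 ± 0.13, adjusted p = 0.782) did not pass.

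Between PN7 and PN14 in saline lung 18 of the 71 channel genes were called, 25.4%, against 45.0% of all probes, with 11 higher and 7 lower (22% and 23% of probes). The sodium channel gene Scn7a rose most, followed by Kcnk2. The inward rectifier Kcnj13, the calcium channel subunit Cacna2d1 and Kcns3 rose too. Of the 18 called, 3 did not have 1 direction in all strains. The median difference was 0.01 over the channel genes and -0.02 over all probes. Leaving out the arrays Lewis PN7 saline c and d gave 13 calls. These saline groups share no slide either, and with slide as a fixed term 16 genes were called, with 1.72 for Scn7a, 1.52 for Kcnk2 and 0.80 for Cacna2d1, while Clcn3, Kcne2, Trpm1, Kcnj14 and Cacna1c lost their call.

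Scn7a encodes a sodium channel that responds to the level of extracellular sodium rather than to voltage. It ran from 8.43 to 10.39 at PN7 (median 9.54) and from 10.51 to 11.61 at PN14 (median 10.93), and rose by 1.43 ± 0.15 (limma, adjusted p = 1.91e-11). It was the 1 channel gene whose PN14 arrays all lay above all PN7 arrays, and 1.60% of probes had no overlap. The rise was 1.25 in Lewis, 1.94 in Fisher and 1.09 in Brown Norway lung. The auxiliary sodium channel subunit Scn3b rose by 0.42 ± 0.13.

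Among potassium channels, Kcnk2 rose a further 1.11 ± 0.18 (limma, adjusted p = 7.65e-07), to a median of 9.10, and rose in each strain, least in Lewis (0.62). Kcns3 rose a further 0.64 ± 0.10, to a median of 10.82, by 0.56 to 0.69 in the strains. Kcnj13 was detected on 9 of 12 arrays at PN14 and was at least 1.07-fold higher than at PN7 (limma, adjusted p = 3.00e-06). Kcnq5, a pore of slow voltage-gated current, rose by 0.49 ± 0.12 and Kcnb2 by 0.38 ± 0.12. Kcne2 fell by 0.46 ± 0.17, Kcnmb4 by 0.40 ± 0.14 and Kcnj14 by 0.25 ± 0.10.

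Calcium channel subunits moved apart between PN7 and PN14. Cacna2d1, which carries pores to the surface, rose by 0.76 ± 0.09 from a median of 9.19 to 9.92 (limma, adjusted p = 1.71e-09), and Cacnb2 rose by 0.40 ± 0.09. The pore Cacna1c of the long-lasting current rose by 0.23 ± 0.09, with -0.23 in Brown Norway lung, and its call was lost in several alternative fits. Cacna1g, a pore of transient calcium current, fell by 0.64 ± 0.17. Clcn3 (0.27 ± 0.11) and Trpm1 (-0.26 ± 0.11) passed narrowly (limma, adjusted p = 0.0418 and 0.0431).

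The remaining genes named for this step did not pass. Scnn1a (0.16 ± 0.16, adjusted p = 0.439), Scnn1b (0.03 ± 0.08, adjusted p = 0.773) and Scnn1g (0.02 ± 0.08, adjusted p = 0.893) were among them. Without 4 arrays in doubt (array c of Fisher PN7 saline, array d of Lewis PN7 saline, array a of Fisher PN1 saline and array a of Lewis PN1 ovalbumin) Scnn1a passed, at 0.41. Kcnk3 had -0.09 ± 0.13, Kcnj8 had -0.14 ± 0.12, Kcnq1 had -0.14 ± 0.10 and Kcnn4 had -0.21 ± 0.19. Kcnmb1 had -0.11 ± 0.11, Clcn2 had 0.06 ± 0.12, Trpv2 had -0.11 ± 0.08 and Trpv4 had -0.18 ± 0.13. Markers of alveolar type 1 cells moved with this step, 6 of 8 called higher and 0 lower, with a median of 0.40, and those of smooth muscle had 0 of 6 higher and 3 lower. Their part in the changes of channel genes was not tested.

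The strains did not share 1 age course. The F test of the saline age profile by strain called 26 of 71 channel genes, 36.6%, against 37.0% of all probes. Kcnmb1, the smooth muscle subunit of the large-conductance potassium channel, gave the lowest p (limma, adjusted p = 1.06e-05), with a step from PN1 to PN7 of -0.05 in Lewis, -0.48 in Fisher and 1.27 in Brown Norway lung. Scnn1a followed (limma, adjusted p = 5.24e-05), with a Fisher PN7 mean that includes array c, which read well above the others. Kcnq1 had -1.35 in Brown Norway lung and 0.26 in Fisher (limma, adjusted p = 6.00e-05). Trpv4, a calcium-permeable channel opened by swelling, had -0.84 in Brown Norway and 0.61 in Fisher lung for the same step, and Kcnh3, an ether-a-go-go family pore, had -1.27 and 0.79.

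Strain differences in saline lung were taken as means over the 3 ages. Brown Norway against Lewis lung gave 18 called channel genes of 71, 25.4%, against 23.4% of all probes, with 8 higher and 10 lower (11.6% and 11.7% of probes). Fisher against Lewis gave 6 (8.45%, against 15.6% of probes), 2 higher and 4 lower (7.97% and 7.67% of probes). Brown Norway against Fisher gave 16 (22.5%, against 32.2% of probes), 8 in each direction (15.8% and 16.5% of probes). Of the called genes, 8, 2 and 5 in the same order did not have 1 direction at all 3 ages. These comparisons share the arrays of 1 strain in pairs.

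Among the genes higher in Brown Norway lung were the potassium channel pores Kcnq5 and Kcnj8. Kcnq5 ran from 5.81 to 6.83 in Brown Norway lung (median 6.34), from 4.96 to 5.84 in Lewis lung (5.53) and from 5.04 to 6.10 in Fisher lung (5.69), and was higher by 0.82 ± 0.12 than in Lewis and by 0.78 ± 0.12 than in Fisher lung (limma, adjusted p = 5.85e-08 and 4.00e-07). Kcnj8 had medians of 6.93, 6.43 and 6.07 in the same order, and was 0.46 ± 0.12 above Lewis and 0.93 ± 0.12 above Fisher. Fisher lung was 0.47 ± 0.12 below Lewis for Kcnj8, so all 3 strains differed. Kcnip2, a calcium-binding partner of Kcnd pores, was detected on 6 of 12 Brown Norway and 0 of 12 Lewis arrays and was at least 1.06-fold higher (limma, adjusted p = 0.000205). Endothelial markers had 3 of 5 called higher in Brown Norway than in Lewis lung, beside 11.6% of all probes. Smooth muscle markers were mostly lower, as given below. The part of either in the level of vascular channels such as Kcnj8 was not tested.

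Other channel genes were lower in Brown Norway lung. Cacna2d1 was 0.60 ± 0.09 below Lewis and 0.66 ± 0.09 below Fisher (limma, adjusted p = 1.98e-07 and 3.99e-08), with medians of 8.88, 9.43 and 9.58. Trpv2 was 0.44 ± 0.08 below Lewis and 0.38 ± 0.08 below Fisher, with the widest gap to Lewis at PN1 (-0.94). Scnn1b was 0.35 ± 0.08 and Cacna1d 0.34 ± 0.10 below Lewis. The gap of Cacna1d lay mostly at PN1. Its saline means at PN1, PN7 and PN14 were 6.99, 7.82 and 7.83 in Brown Norway and 7.85, 7.92 and 7.88 in Lewis lung. Cacng1, a calcium channel subunit of skeletal muscle, was called lower too, but 3 of 12 Lewis and 0 of 12 Brown Norway arrays detected it, and the skeletal muscle markers had 1 of 5 lower and a median of -1.22. Smooth muscle markers had 5 of 6 lower and 0 higher than in Lewis lung, with a median of -0.52.

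Kcnmb2, another auxiliary subunit of the large-conductance potassium channel, was highest in Lewis lung. Its medians were 8.06 in Lewis, 7.29 in Fisher and 7.59 in Brown Norway, with differences from Lewis of -0.76 ± 0.10 and -0.58 ± 0.10 (limma, adjusted p = 7.23e-09 and 2.67e-06). Kcnd3 was 0.76 ± 0.11 lower in Fisher than in Lewis lung, and Brown Norway lung was 0.50 ± 0.11 above Fisher. The gap between Fisher and Lewis was widest at PN1. Saline means of Kcnd3 at PN1, PN7 and PN14 were 8.77, 7.36 and 7.77 in Lewis and 7.33, 7.11 and 7.17 in Fisher lung. Cacnb2 was 0.26 ± 0.09 higher in Brown Norway than in Lewis and 0.41 ± 0.09 higher than in Fisher lung, and Cacna1c was 0.31 ± 0.09 higher in Fisher than in Lewis lung. Against Fisher, Brown Norway lung also had less Kcnj12 (-0.48 ± 0.14) and Kcns3 (-0.27 ± 0.10), and Kcnj15 was at least 1.05-fold higher. In saline Brown Norway lung Kcnj15 was detected on 4 arrays at PN1 and on 0 at PN7 and PN14. Its saline means at these ages were 6.72, 5.37 and 5.15 in Brown Norway and 5.28, 5.05 and 5.08 in Fisher lung.

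**Figure D2:**
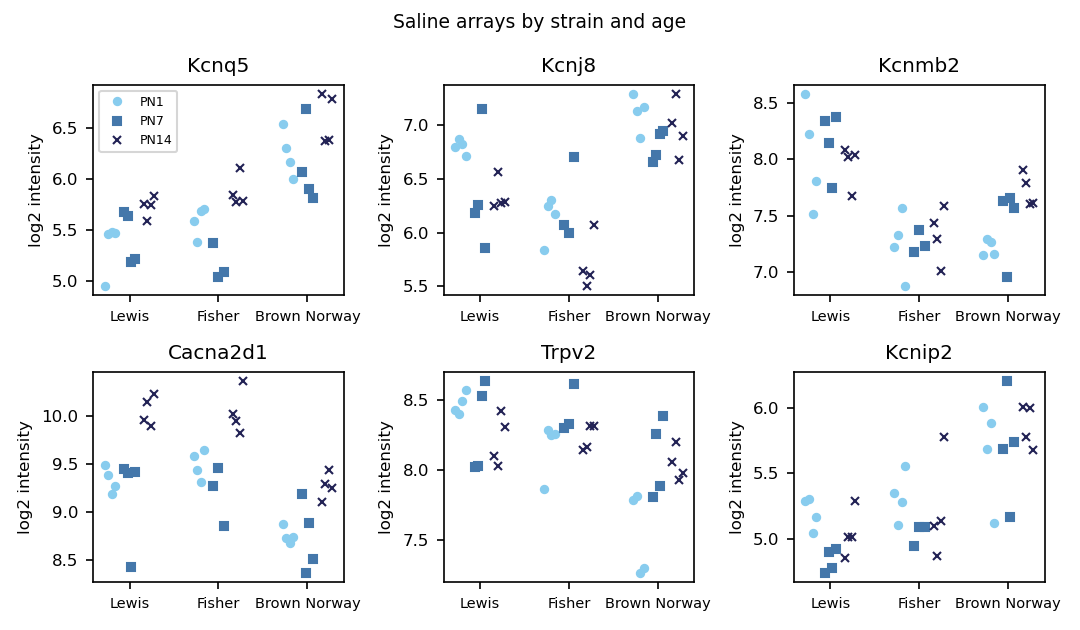
Log2 intensity of 6 channel genes in saline arrays by strain (horizontal axis) and age (symbols); each point is 1 array. Kcnq5, Kcnj8 and Kcnip2 lie higher in Brown Norway, Cacna2d1 and Trpv2 lower, and Kcnmb2 lies highest in Lewis lung.

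Exposed and saline lung were compared at each age within each strain. Channel genes were called in Brown Norway lung at PN1 and in Lewis lung at PN7. At PN1, 0 of 71 were called by limma in Lewis lung (0.171% of probes; 9 channel genes at an unadjusted p under 0.05) and 0 in Fisher lung (2.75%; 5 genes). At PN7, 0 were called in Fisher lung (2.00%; 15 genes) and 0 in Brown Norway lung (0.150%; 8 genes). At PN14, 0 were called in Lewis (0%; 4 genes), Fisher (0.0143%; 2 genes) and Brown Norway lung (0.00713%; 2 genes). In every strain at PN14, and in Brown Norway lung at PN7, saline and ovalbumin arrays shared no slide. Exposure and slide effects cannot be told apart within these groups. In Fisher lung at PN7 the lowest adjusted p was that of Scnn1g, with 0.52 ± 0.15 (limma, adjusted p = 0.0521).

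In Brown Norway lung at PN1, 18 of 71 channel genes were called, 25.4%, against 26.3% of all probes, with 8 higher and 10 lower after ovalbumin. The arrays of the exposures did not overlap for 19 channel genes, 4 against 4 arrays, and for 31.5% of probes. The median difference was -0.03 over the channel genes and 0.00 over all probes. The 5 largest falls were those of Kcnk1, Kcnj15, Scnn1a, Kcnmb4 and Kcnj13, and the 5 largest rises those of Kcnmb1, Cacna1d, Scn7a, Trpv2 and Kcne2.

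Kcnk1 read 12.16, 11.29, 11.99 and 11.78 in saline and 10.20, 9.96, 10.38 and 10.01 in ovalbumin arrays, and fell by 1.67 ± 0.24 to 0.314 of the saline level (limma, adjusted p = 1.81e-07). Kcnmb4, a further auxiliary subunit of the large-conductance channel, read 7.55, 7.12, 7.50 and 7.42 against 6.12, 5.96, 6.17 and 5.93, and fell by 1.35 ± 0.24 (limma, adjusted p = 1.03e-05). Kcnj15 read 6.77, 6.24, 7.23 and 6.63 against 5.50, 5.31, 5.35 and 5.09. It was detected on all 4 saline and on 0 of 4 ovalbumin arrays, so it was at least 2.00-fold lower (limma, adjusted p = 1.57e-08). For these 3 genes every exposed array lay below every saline array. Kcnj13 fell by 0.99 ± 0.24, with some overlap.

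Among the rises, Kcnmb1 read 5.79, 5.83, 5.28 and 5.51 in saline and 6.79, 6.80, 6.78 and 6.67 in ovalbumin arrays, 1.16 ± 0.18 higher or 2.23-fold, with 1 of 4 saline arrays detected (limma, adjusted p = 1.49e-06). Cacna1d read 6.79, 7.28, 6.82 and 7.08 against 7.86, 7.95, 7.82 and 7.77, a rise of 0.86 ± 0.17 (limma, adjusted p = 5.99e-05). Trpv2 read 7.78, 7.82, 7.26 and 7.30 against 8.49, 8.47, 8.06 and 8.44, a rise of 0.82 ± 0.13 (limma, adjusted p = 2.71e-06). None of these 3 overlapped between the exposures. Scn7a rose by 0.85 ± 0.25 and Kcne2 by 0.81 ± 0.28, and leaving out any of 5 of the 8 arrays ended the call of Kcne2. Within slide 3, which held 2 arrays of each exposure, all 18 genes kept their direction and 6 channel genes were called. These are part of the same arrays, so genes without overlap between the exposures could not change direction.

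In Lewis lung at PN7, 21 of 71 channel genes were called, 29.6%, against 35.2% of all probes, with 12 higher and 9 lower after ovalbumin. The arrays did not overlap for 16 channel genes and for 29.8% of probes. The median difference was 0.12 over the channel genes and 0.01 over all probes. Besides the epithelial sodium channel, the sodium channel pore Scn10a and the transient outward channel genes Kcnd3 and Kcnip2 rose, and potassium and calcium channel genes fell.

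Scn10a, known from pain-sensing neurons, read 5.46, 5.39, 5.54 and 5.83 in saline and 7.08, 6.54, 7.93 and 7.37 in ovalbumin arrays. It was detected on 0 of 4 saline arrays and was at least 2.64-fold higher (limma, adjusted p = 2.53e-08). In the same comparison the neuronal and neuroendocrine markers had 0 of 6 higher and 1 lower, and their summed signal ran from 399 to 572 in saline and from 280 to 323 in ovalbumin arrays. Kcnd3 read 7.66, 7.69, 6.53 and 7.56 against 8.93, 8.78, 8.79 and 8.86, a rise of 1.48 ± 0.18 (limma, adjusted p = 1.29e-09), or 1.16 without Lewis PN7 saline c and d. Its partner Kcnip2 read 4.74, 4.89, 4.77 and 4.92 against 5.80, 5.77, 6.83 and 5.97, detected on 0 and 3 of 4 arrays, at least 1.20-fold higher (limma, adjusted p = 0.000121). Both genes are prominent in heart muscle, whose markers had 0 of 9 higher and 1 lower, with sums of 14865 to 24879 in saline and 18229 to 25860 in ovalbumin arrays. The part of neuronal or heart muscle cells in these rises was not tested.

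Among the falls, Kcns3 read 10.53, 10.41, 10.30 and 10.02 in saline and 9.44, 9.22, 9.39 and 9.27 in ovalbumin arrays, 0.99 ± 0.17 lower on the log2 scale, or 0.504 of the saline level (limma, adjusted p = 4.51e-06). Cacna1d read 8.02, 7.97, 8.14 and 7.55 against 7.12, 7.22, 6.87 and 6.88, a fall of 0.89 ± 0.17. Kcnmb1 read 6.22, 6.38, 6.30 and 6.28 against 5.62, 5.82, 5.75 and 5.05, a fall of 0.74 ± 0.18. Every exposed array lay below every saline array for these 3 genes. Kcnh1 fell by 0.75 ± 0.20, and Kcnj12, detected on 3 of 4 saline and 0 of 4 ovalbumin arrays, was called lower (limma, adjusted p = 0.00292). All 21 genes kept their direction within slide 2 and within slide 4, each with 2 arrays of each exposure. These are parts of the same arrays, so genes without overlap between the exposures could not change direction. Within slide 2, 2 channel genes were called, and within slide 4, 21, without Kcnmb1.

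The 2 exposure comparisons share no array, and 9 channel genes were called in both, 50% of the 18 and 42.9% of the 21. Over all probes 2159 were called in both, 58.6% of those called in Brown Norway lung at PN1 and 43.7% of those called in Lewis lung at PN7. Of the 9 channel genes 7 moved in opposite directions, and of the 2159 probes 2058 did (95.3%), so opposite directions are not particular to the channel genes. Scnn1a, Kcnk1, Kcnq1, Kcnj15 and Trpc4ap were lower in exposed Brown Norway lung at PN1 and higher in exposed Lewis lung at PN7, and Kcnmb1 and Cacna1d were the reverse. Kcnd3 was higher and Kcnh1 lower in both. Kcnk1 had -1.67 and 0.78, and Kcnq1 -0.59 and 0.66. In this pair of comparisons smooth muscle markers moved with Kcnmb1: in Brown Norway lung at PN1 their summed signal was 8817 to 17834 in saline and 19888 to 25444 in ovalbumin arrays, with 3 of 6 called higher and 0 lower. In Lewis lung at PN7 it was 18198 to 28137 in saline and 5817 to 9109 in ovalbumin arrays, with 0 of 6 higher and 3 lower. Their part in the results was not tested.

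**Figure D3:**
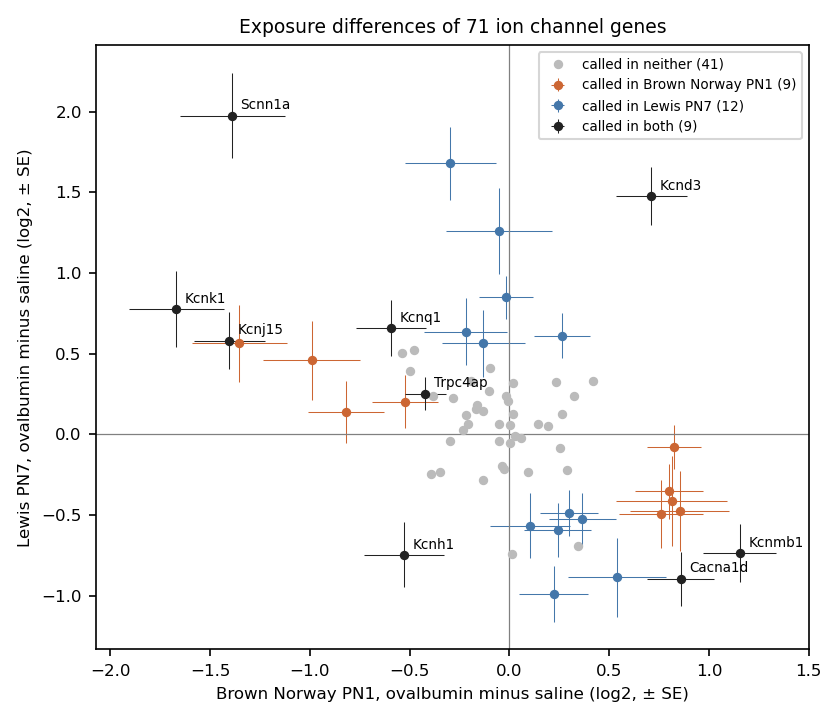
Difference between ovalbumin and saline arrays for the 71 channel genes in Brown Norway lung at PN1 (horizontal) and in Lewis lung at PN7 (vertical), log2 with standard errors for called genes. Of the 9 genes called in both (black, named), 7 lie on opposite sides of 0 on the axes.

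Several of these genes also changed with age in saline lung, and the saline arrays are shared between these comparisons, so the values are given side by side only. In Brown Norway saline lung the step from PN1 to PN7 was -2.23 for Scnn1a, -2.19 for Kcnk1, -1.35 for Kcnq1 and 1.27 for Kcnmb1, beside exposure differences at PN1 of -1.39, -1.67, -0.59 and 1.16. In Lewis saline lung the step was -1.23 for Scnn1a, -1.09 for Kcnk1, -1.41 for Kcnd3 and 1.03 for Kcns3, beside exposure differences at PN7 of 1.98, 0.78, 1.48 and -0.99.

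**Figure D4:**
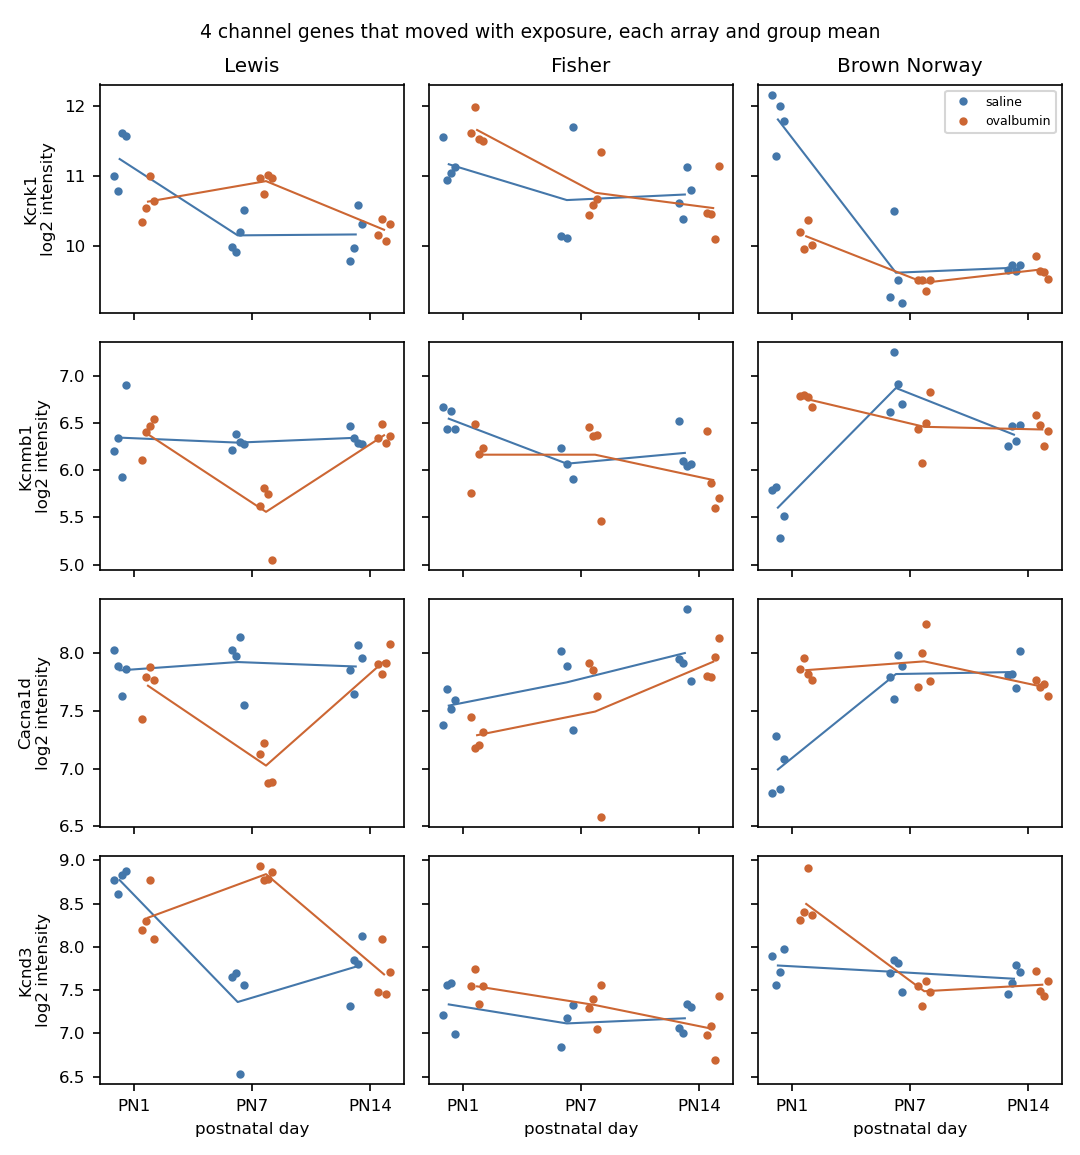
Log2 intensity of Kcnk1, Kcnmb1, Cacna1d and Kcnd3 (rows) by postnatal age in each strain (columns); points are arrays and lines join group means. The exposures separate at PN1 in Brown Norway lung and at PN7 in Lewis lung, in opposite directions for Kcnk1, Kcnmb1 and Cacna1d and upward both times for Kcnd3.

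The exposure effect differed between strains by an F test for 14 of 71 channel genes at PN1 (19.7%, against 22.6% of probes), for 20 at PN7 (28.2%, against 25.0%; 7 when only the groups compared were fitted) and for 0 at PN14 (limma, 0% of probes, 1 gene at an unadjusted p under 0.05). At PN1 Kcnk1 had the lowest p, with -0.61 in Lewis, 0.49 in Fisher and -1.67 in Brown Norway lung (limma, adjusted p = 1.39e-05). Cacnb3 had -0.36, -0.26 and 0.80 (limma, adjusted p = 0.000261). At PN7 Kcnd3 had 1.48 in Lewis, 0.21 in Fisher and -0.22 in Brown Norway lung (limma, adjusted p = 1.75e-06), and Scnn1b had 0.85, -0.09 and -0.07 (limma, adjusted p = 9.32e-05). Scnn1g had 0.61 in Lewis, 0.52 in Fisher and -0.33 in Brown Norway lung. In Brown Norway lung at PN7 the exposures shared no slide, so the PN7 test cannot tell exposure from slide in that strain.

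Of 31 other genes listed for lung liquid and epithelial ion transport, 21 were measured. Between PN1 and PN7 in saline lung 4 were called higher and 7 lower, beside 24.3% and 22.7% of all probes, and Atp1b1, the beta subunit of the sodium pump, fell by 1.47 ± 0.14. In exposed Brown Norway lung at PN1, 3 were higher and 8 lower, beside 13.7% and 12.6% of probes, with Atp1b1 at -1.36 ± 0.23 and the water channels Aqp3 at -1.80 ± 0.29 and Aqp5 at 1.62 ± 0.25. In exposed Lewis lung at PN7, 4 were higher and 3 lower, near the 18.3% and 16.9% of probes, with Atp1b1 at 1.88 ± 0.23, Aqp3 at 0.93 ± 0.29 and Hsd11b2, which inactivates glucocorticoids, at -1.72 ± 0.31. Of 12 measured genes of calcium stores and store-operated entry, 0 rose and 2 fell in exposed Brown Norway lung at PN1, and 2 rose and 0 fell in exposed Lewis lung at PN7, counts near the shares of all probes just given. The store calcium channel Itpr1 was among them both times, at -1.41 ± 0.21 and 1.09 ± 0.21.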

How the data were processed

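Total RNA of whole lung was made into biotinylated cRNA and hybridized to bead arrays, 71 in all. Per the file headers, the authors deposited bead intensities as scanned, neither background-corrected nor normalized. A detection p-value per probe stands beside each deposited intensity. Their deposited log2 values equalled the quantile-normalized log2 raw intensities to within 5.0e-05. The submitters' processing notes name lumi, with no version. No genome build is given in the sources used here.

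Here the intensities went through neqc (normexp background, quantile normalization, log2, offset 16) of limma 3.58.1 in R 4.3.3, with statmod 1.5.0. Figures used Python 3.11.15, matplotlib 3.10.9, numpy 2.4.6 and pandas 2.3.3. Tests covered the 14019 probes that 3 or more arrays detected (p under 0.01). Each of the 71 genes had 1 such probe. All 18 group means were fitted together with limma (53 residual degrees of freedom, trend), with Benjamini-Hochberg adjustment over these probes. A probe undetected on every array of 1 side is given as "at least", against the lowest detected signal of each array, and with no fold where this falls under 1.

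Named genes were the 10 largest rises and falls of an age step with 1 direction in all strains, the 6 highest and lowest of a strain comparison with 1 direction at all ages, the 5 largest rises and falls of an exposure comparison, the 5 lowest p-values of an F test, and a fixed set in each age step. Promoter sequences are RefSeq's (GRCr8), for 50 of the 71 genes. The members, lists, motifs and naming rule were chosen with earlier results of these data known.

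Alternatives were the authors' values, 75th percentile scaling, other detection filters, slide as a random block or a fixed term, fits within 1 slide, fits of only the groups compared, a block by replicate letter, and omission of each array in turn or of 4 arrays in doubt. Leaving out Lewis PN7 saline c and d, single-slide values of named genes and a block by pair in Fisher PN7 were chosen after seeing the data. Whether the letters pair arrays is not stated. Only in Fisher PN7 were the deviations of same-letter arrays clearly correlated for every letter (0.351, 0.433 and 0.340). There letters a and b also shared a slide, and letter a in Lewis PN14 had 0.349. The fit was tested on simulated data with independent noise and no slide effect or outlying array. Far fewer probes were changed there than were called in exposed Lewis lung at PN7, so its recovery rates need not hold for the real arrays. For ovalbumin against saline in Lewis PN7 it recovered 48% of 100 probes changed 1.5-fold and 81% of 100 changed 2-fold, of 14019. The number of arrays limits the precision.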

Additional observations from a re-analysis of the deposited data

Results flagged for a closer look

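Each gene named for exposure was examined in its groups of 4 arrays, 40 sets in all, and many of these sets share arrays. In 4 sets 1 array stood apart by a gap that was large relative to the range, though not always large itself. Chance would give about 1 in 20 independent sets. Scnn1a read 12.26 in Lewis PN7 saline d, against a median of 11.53 in the others, and Kcnd3 read 6.53 in Lewis PN7 saline c, against 7.66. Trpv2 read 8.06 in Brown Norway PN1 ovalbumin c, against 8.48, and Kcnmb1 read 6.67 in Brown Norway PN1 ovalbumin d, against 6.79. The differences of Scnn1a and Kcnd3 in exposed Lewis lung kept their call without each of these arrays.

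The age course in saline lung differed between strains for Kcnmb1 (limma, adjusted p = 1.06e-05), Scnn1a (5.24e-05), Kcnq1 (6.00e-05), Trpv4 (0.000136) and Kcnh3 (0.000157). The exposure difference at PN1 differed between strains for Kcnk1 (limma, adjusted p = 1.39e-05), Kcnmb1 (2.92e-05), Kcnj15 (6.52e-05), Cacnb3 (0.000261) and Cacna1d (0.000425). That at PN7 differed for Kcnd3 (limma, adjusted p = 1.75e-06), Scn10a (1.53e-05), Scnn1b (9.32e-05), Scnn1a (0.000149) and Scnn1g (0.000264). In Brown Norway lung at PN7 exposure and slide cannot be told apart.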

How the results depend on the processing

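With slide as a fixed term, 12 channel genes were called between PN1 and PN7 instead of 24, and 4, 3 and 1 instead of 0 in exposed Brown Norway lung at PN7 and exposed Lewis and Fisher lung at PN14. In these last 3 groups, and in Brown Norway lung at PN14, saline and ovalbumin arrays share no slide. In this fit Scn3b (-0.16) and Cacna1d (-0.073) reversed for the step from PN1 to PN7 in saline lung. The cause was not tested. Within slide 3, 6 genes were called for exposure in Brown Norway lung at PN1 and within slide 2, 2 in Lewis lung at PN7, each from 2 arrays against 2. For exposure in Fisher lung at PN7, 1 gene was called under a stricter detection filter and 2 without 4 arrays in doubt, instead of 0. Fitted with only the groups compared, the PN7 exposure effect differed between strains for 7 genes instead of 20.

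Leaving out 1 array at a time gave 0 to 1 called genes for exposure in Lewis lung at PN1, 0 to 1 in Fisher lung at PN7 and 0 to 2 in Brown Norway lung at PN7. The count between PN1 and PN7 ran from 23 to 33, highest without Fisher PN7 saline c, and that between Fisher and Lewis from 5 to 9. Of 95 called results for named genes, 94 kept their call with the authors' values, 90 with 75th percentile scaling, 87 with a random slide block and 78 with a fixed slide term. The replicate block kept all 95, with 24 calls between PN1 and PN7 and 22 in exposed Lewis lung at PN7, and by pair gave 0 in Fisher lung at PN7. Genes detected on few arrays lie near background and limit what these arrays can show.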
